A study of Canis lupus familiaris with 25 samples.

Results

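A set of 9 primary canine tumors was compared by how long their tissue blocks had been stored. In 4 of them the block was stored for 4 years or more, and in 5 for 1 year or less, out of 25 samples in the series. All were primary apocrine gland anal sac adenocarcinomas (AGASAC), malignant tumors of the glands in the wall of the canine anal sac, and every block was formalin-fixed and paraffin-embedded (FFPE). Tumors 6, 7, 8 and 9 made up the long-stored group and tumors 1, 2, 3, 10 and 11 the short-stored group. Each tumor came from a different pet dog, so the spread within a group is the spread between animals. Primary tumors 4 and 5 belonged to neither group and are given only beside some values. The split follows the storage times that the study lists for its samples, and it is not among the sample labels.

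The series also held 10 hepatoid gland adenomas and 4 AGASAC metastases, which took no part in the comparison. Total RNA was sequenced with QuantSeq 3′, a method that primes from the poly(A) tail, so that reads fall close to where a transcript ends. The measurement is a whole read count for every gene and sample, over 24532 genes.

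The dogs with long-stored blocks were 10, 11, 11 and 12.5 years old, and those with short-stored blocks were 8.5, 9, 9, 10 and 10 years old. The long-stored group held a neutered female (Shepherd), a female (Eurasier) and 2 neutered males (Munsterlander and Mixed-breed). The short-stored group held a neutered female (Rhodesian Ridgeback) and 4 neutered males (Border Collie, Mixed-breed, Pug and Shih Tzu). The raw read files that the study lists follow 2 naming patterns, called series A and series B here, and what the patterns stand for is not stated. The 4 long-stored tumors and short-stored tumors 10 and 11 belonged to series B, whereas short-stored tumors 1, 2 and 3 belonged to series A. A comparison within series B therefore had 4 tumors against 2. Long-stored tumors 7 and 9 and short-stored tumor 3 shared an extraction batch, and no other batch held tumors of both groups. Tumor 3 belonged to series A, so within series B no batch held both groups, and storage and extraction batch cannot be told apart there. Storage was not assigned at random. Storage, the year of surgery, the dog and, outside that batch, the RNA extraction cannot be told apart in this design. Of the compared tumors, only short-stored tumors 1, 2 and 3, those of series A, had a sampled lymph node metastasis. Series and sampled metastasis therefore cannot be told apart here either.

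Formalin links RNA to protein and adds chemical groups to its bases, and RNA in paraffin blocks goes on breaking into shorter pieces over time. A 3′ method needs a short stretch next to the poly(A) tail, so it tolerates fragmentation better than methods that read whole transcripts. Transcripts differ in length, structure and protein cover, and classes of transcripts such as those of ribosomal proteins, short and very abundant, are therefore described separately.

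The counts on genes were 2593702, 2581453, 2695783 and 2950459 in long-stored tumors 6, 7, 8 and 9. In the short-stored tumors they ranged from 2937658 to 4218340. The groups overlapped by tumor 9 alone, which stood above short-stored tumor 2. The mean was 2705000 ± 171300 (SD, n = 4) after long storage and 3329000 ± 548100 (SD, n = 5) after short storage (exact permutation test, two-sided, p = 0.0317, adjusted by Benjamini-Hochberg over 7 measures 0.111). The smallest p that 4 tumors against 5 can give is 0.0159. The share of RNA fragments over 200 bases (DV200), the quality measure in the labels, was 76.6% ± 1.49 (SD, n = 4) against 76.4% ± 5.34 (SD, n = 5), a difference of 0.185 percentage points (exact permutation p = 0.921, adjusted 0.921). Age was 11.1 years ± 1.03 (SD, n = 4) against 9.3 years ± 0.671 (SD, n = 5) (exact permutation p = 0.0476, adjusted 0.111).

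When the 9 tumors were brought to the same depth of 2581453 counts, 16200 ± 923 genes (SD, n = 4) had at least a single count after long storage and 16510 ± 234 (SD, n = 5) after short storage (exact permutation p = 0.476, adjusted 0.556). Tumor 6 had the most genes of all 9, and without it the difference grew to 761 fewer genes after long storage (exact permutation p = 0.0357, unadjusted). The 100 most abundant genes took 23.2% ± 1.78 (SD, n = 4) against 25.2% ± 2.24 (SD, n = 5) of the counts (exact permutation p = 0.238, adjusted 0.333).

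The labelled tumor type was checked against its markers. Of 17 markers of apocrine luminal epithelium in the table, 16 were abundant enough to be tested. GATA3, a transcription factor of glandular epithelium, stood between 3990 and 5200 CPM (counts scaled to a common library size) in the long-stored tumors and between 3360 and 4780 CPM in the short-stored ones. The secreted protein gene PIP ranged from 953 to 6580 CPM and from 2470 to 5070 CPM. Among 14 markers of squamous and sebaceous epithelium only 2 reached the level needed for a test. The median log2 fold change (log2FC, long minus short throughout) of the 16 luminal markers was −0.08, against 0.00 over all tested genes.

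In a principal component plot of the tested genes, component 1 held 22.3% of the variance. Long-stored tumors 6, 7 and 9 stood at 32, 51.5 and 75.4 on it, and the short-stored tumors at −56.7 to −19. Long-stored tumor 8, at −5.3, lay closer to short-stored tumor 11 than to any other long-stored tumor on this axis. Among the short-stored tumors, those of series A stood at −56.7, −35.5 and −20.1 and those of series B at −22.3 and −19.

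**Figure D1:**
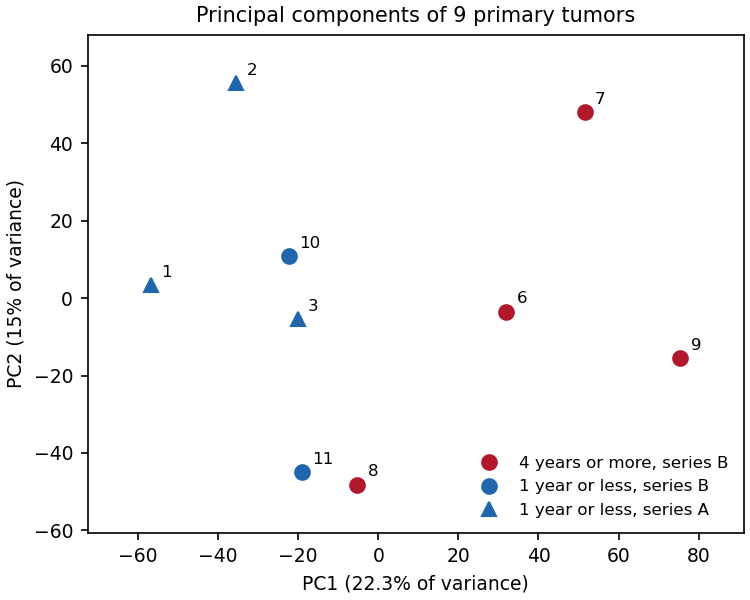
Principal components 1 and 2 of 9 primary AGASAC, from log2 CPM of the tested genes, with the tumor number beside each point, storage by color and file-name series by symbol. The long-stored tumors 6, 7 and 9 lie to the right at 32 or more on component 1, and tumor 8 lies at −5.3, next to the short-stored tumors.

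No single gene passed the study's thresholds in the main test used here, which is not the study's own test. These thresholds are a p adjusted by Benjamini-Yekutieli not above 0.05 together with a log2FC of 1 or more in size. With edgeR's quasi-likelihood test, 0 of 12721 tested genes were called (0%), and the lowest adjusted p was 0.164, for CD74. Benjamini-Hochberg adjustment of the same test called only CD74, 1 gene of 12721 (0.00786%), with an adjusted p of 0.0163. That adjustment called 0 genes within series B, with series, age or DV200 as a term, and without tumor 1, 2, 6, 10 or 11, and it called 8 without tumor 8. At an unadjusted p under 0.05, 800 genes (6.29%) were higher and 767 genes (6.03%) were lower in the long-stored tumors, which is 1567 genes in all. DESeq2, which the study used for its sequencing data, called 62 genes by its Wald test with the same thresholds, 38 higher and 24 lower. It gave 21845 genes a p-value, and the adjustment covered only those that its own filter on low mean counts kept. Of the 62 genes, 51 were abundant enough to be tested by edgeR, and 51 of 51 had an unadjusted p under 0.05 there. Both tests used the same counts, so this is not independent support. In the text that follows, "higher" and "lower" give the direction of a measured difference, and a gene "at an unadjusted p under 0.05" did not pass the correction unless it is said to be called.

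Genes whose 4 long-stored values did not overlap with the 5 short-stored values numbered 295 (2.32%) above and 290 (2.28%) below. The shares of genes higher and lower were thus nearly equal over all genes, and the median log2FC over all of them was 0.00. Scaling by library size alone moved that median to 0.11 and gave 1093 higher and 506 lower genes at an unadjusted p under 0.05, so the medians of lists are read relative to that shift.

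Cytosolic ribosomal protein genes, which encode the protein part of the ribosome, took a smaller share of the counts after long storage. Their share was 9.73%, 9.31%, 8.85% and 7.62% of the counts in long-stored tumors 6, 7, 8 and 9. In short-stored tumors 1, 2, 3, 10 and 11 it was 17.5%, 11.4%, 9.47%, 13% and 16.3%. The groups overlapped through short-stored tumor 3 alone, which lay between long-stored tumors 6 and 7 and shared the extraction batch of tumors 7 and 9. The mean was 8.88% ± 0.911 (SD, n = 4) against 13.5% ± 3.37 (SD, n = 5), a difference of −4.67 percentage points (exact permutation test, two-sided, p = 0.0317, adjusted over 7 measures 0.111). Within series B the difference was −5.8 percentage points without overlap, where 4 tumors against 2 cannot give an exact p under 0.133. Primary tumors 4 and 5, in neither group, had 9.21% and 10.8%. In the metastases of the dogs of short-stored tumors 1, 2 and 3, which are not independent of them, the share was 18.1%, 8.69% and 9.83%.

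**Figure D2:**
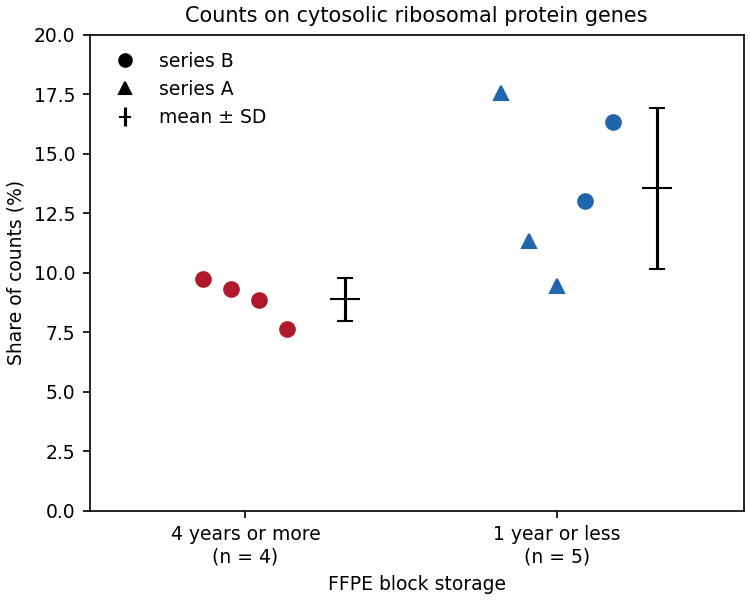
Share of all counts on cytosolic ribosomal protein genes (percent, axis from 0) in each of 9 primary AGASAC by block storage, with file-name series by symbol and the mean ± SD beside each group. The 4 long-stored tumors lie between 7.62% and 9.73%, and 4 of 5 short-stored tumors lie above them.

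The lower share was spread over many genes. Of 81 tested ribosomal protein genes, 79 had a log2FC below 0, and their median was −0.75 against 0.00 over all tested genes. At an unadjusted p under 0.05, 48 of 81 (59.3%) were lower and 0 were higher, against 6.03% and 6.29% over all genes. In 18 of 81 the groups did not overlap, against 2.28% of all genes. The ribosomal protein genes share regulation and libraries and are not independent of each other. Leaving out 1 tumor at a time gave medians from −0.88, without tumor 3, to −0.62, without tumor 1. Within series B the median was −0.94, with 55 of 81 lower at an unadjusted p under 0.05, against 508 of 12661 over all genes.

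Age moved with storage, and the class could not be separated from it. With the dog's age as a covariate the median of the ribosomal protein genes was −0.22, and 2 of 81 were lower at an unadjusted p under 0.05. Over all genes, the same fit had 295 higher and 196 lower. With DV200 as a covariate the median stayed at −0.75, with 49 of 81 lower, against 674 of 12721 over all genes.

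RPS27A, which encodes a ubiquitin fused to a ribosomal protein, had the largest log2FC of the class. It had 1580, 1110, 1370 and 786 CPM in long-stored tumors 6, 7, 8 and 9, and 4170, 2130, 2150, 3740 and 4580 CPM in short-stored tumors 1, 2, 3, 10 and 11. The groups did not overlap, and the log2FC was −1.47 ± 0.33 (SE, n = 4 and 5). RPS3A, of the small subunit, had 522, 451, 541 and 365 CPM against 1130, 822, 822, 1120 and 1230 CPM (log2FC −1.13 ± 0.23, SE). Here the spread within the groups was small, and every long-stored tumor was below every short-stored tumor. RPL26 and RPL34, of the large subunit, had log2FC of −1.38 ± 0.29 and −1.42 ± 0.31 (SE), also without overlap. The table has a near-identical second entry for each (LOC608703 and RPL34_1), and since multi-mapped reads were split between copies, these values are uncertain. DESeq2 called these 4 genes, RPS27A, RPS3A, RPL26 and RPL34, and no other gene of the list.

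The 2 most abundant members are given as well. RPS28 had 5100, 5760, 5050 and 4380 CPM against 10900, 7250, 4040, 6080 and 8760 CPM, and the groups overlapped because short-stored tumor 3 was below all 4 long-stored tumors (log2FC −0.55 ± 0.30, SE). RPL13A had 4320, 3240, 3660 and 2820 CPM against 6970, 5100, 4010, 5950 and 7610 CPM (log2FC −0.75 ± 0.26, SE). RPL36 and RPL7L1, named because they were the only members above 0, had log2FC of 0.06 ± 0.32 and 0.12 ± 0.25 (SE).

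Translation factors, which load and move the ribosome along the mRNA, leaned the same way with a smaller median. Their median log2FC was −0.33 over 60 tested genes, of which 11 (18.3%) were lower and 2 (3.33%) higher at an unadjusted p under 0.05, against 6.03% and 6.29% of all genes. EIF3L, a subunit of initiation factor 3, had 50.7, 48.3, 56.2 and 32.6 CPM after long storage and 122, 73.8, 75.5, 86.6 and 117 CPM after short storage (log2FC −1.02 ± 0.25, SE). The subunit gene EIF3D had 211, 187, 224 and 194 CPM against 478, 341, 245, 402 and 431 CPM (log2FC −0.89 ± 0.23, SE). Neither gene had overlapping groups. EEF2, an elongation factor and the list's most abundant member together with EEF1B2, overlapped (log2FC −0.59 ± 0.36, SE). With age as a covariate the list's median was −0.10 and 0 of 60 genes were lower at an unadjusted p under 0.05. Over all genes, 196 of 12721 were lower in that fit, so a count of 0 in 60 says little about the list.

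**Figure D3:**
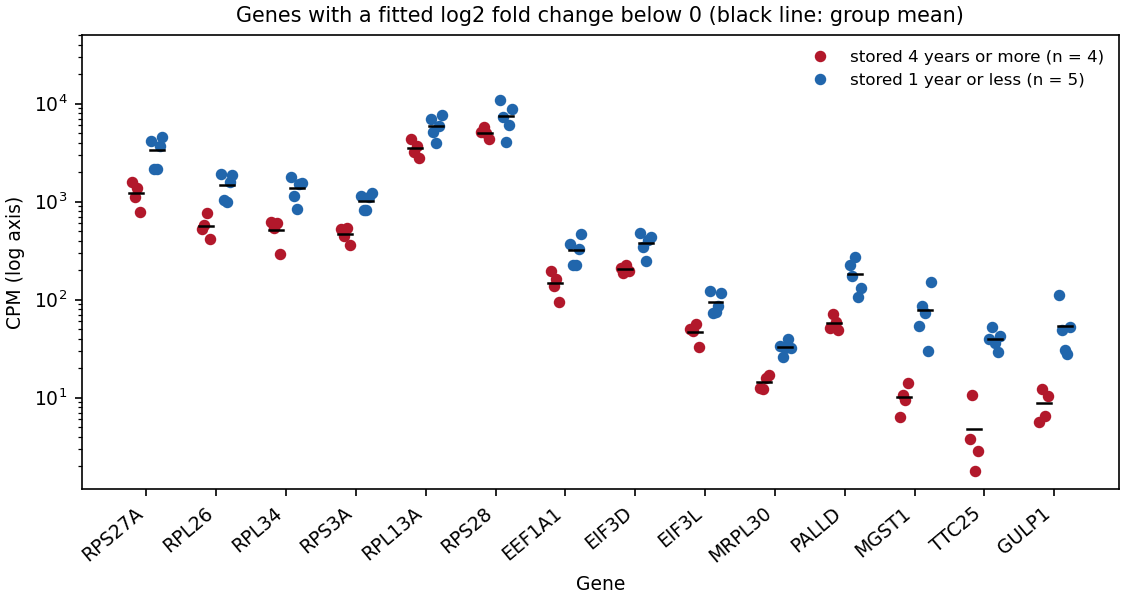
CPM (log axis) of 14 genes with a log2FC below 0, with 4 long-stored tumors (red) and 5 short-stored tumors (blue) per gene and a black line at each group mean. In 12 of the 14 the groups do not overlap, and RPL13A and RPS28 are the overlapping ones.

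Other classes of housekeeping transcripts had medians nearer to that of all genes. The median log2FC was −0.14 for 76 mitochondrial ribosomal proteins (2 higher and 3 lower at an unadjusted p under 0.05) and −0.14 for 66 nuclear-encoded subunits of the respiratory chain (1 higher and 5 lower). It was −0.13 for 46 proteasome subunits (1 higher and 5 lower) and −0.03 for 66 splicing factors (2 higher and 5 lower). In the same order, the shares lower were 3.95%, 7.58%, 10.9% and 7.58%, against 6.03% of all genes. The shares higher were 2.63%, 1.52%, 2.17% and 3.03%, against 6.29%. In the first 3 of these lists 56, 44 and 34 genes had a log2FC below 0, and within series B their medians were −0.22, −0.24 and −0.25. The counts of mitochondrially encoded genes could not be compared, as 0 of them were found in the table. Among single members, the respiratory chain genes NDUFA6 and UQCR11 lay apart in opposite directions, with log2FC of −0.87 ± 0.24 and 0.65 ± 0.20 (SE) and no overlap in either. MRPL30, of the mitochondrial ribosome, had 12.4, 12.3, 15.8 and 17.2 CPM against 33.8, 26, 31.9, 40 and 32 CPM (log2FC −1.18 ± 0.24, SE), well apart from the median of its list. PSMD7, of the proteasome lid, had a log2FC of −0.88 ± 0.25 (SE) without overlap.

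Stress and secretory genes gave medians of −0.32 for 14 heat shock proteins and chaperones (0 higher and 1 lower) and −0.19 for 25 genes of the endoplasmic reticulum and secretory pathway (0 higher and 5 lower). The shares lower at an unadjusted p under 0.05 were 7.14% and 20%, against 6.03% of all genes, where 6.29% were higher. BAG3, a co-chaperone, had 12.8, 4.98, 14.8 and 6.38 CPM against 17.5, 43.9, 46.5, 25.5 and 19.1 CPM (log2FC −1.65 ± 0.45, SE). HSP90AA1, the most abundant of the chaperones, overlapped (log2FC −0.35 ± 0.30, SE). SPCS2, of the signal peptidase, had a log2FC of −0.76 ± 0.20 (SE) without overlap, and CALR, a calcium-binding chaperone, one of 0.37 ± 0.23 (SE).

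Immediate early genes, which respond within minutes to handling and lack of blood flow, had a median of −0.03 over 27 genes. At an unadjusted p under 0.05, 1 (3.7%) was higher and 3 (11.1%) were lower, against 6.29% and 6.03% of all genes. BTG2, an antiproliferative member, had 137, 59.8, 192 and 100 CPM against 45.2, 26.7, 24.2, 28.3 and 58.8 CPM (log2FC 1.73 ± 0.38, SE), with a narrow gap between the groups. JUN, a subunit of the transcription factor AP-1, went the other way, with 184, 271, 324 and 190 CPM against 543, 606, 600, 427 and 324 CPM (log2FC −1.04 ± 0.27, SE). Genes of hypoxia and glycolysis had a median of 0.04 over 18 genes, with 3 (16.7%) higher and 0 lower. GAPDH, often used as a reference gene, had a log2FC of −0.11 ± 0.29 (SE), and PKM, the last enzyme of glycolysis, one of 0.66 ± 0.21 (SE).

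Transcript type and gene length were set against storage as well. Protein-coding genes had a median log2FC of 0.00 (11133 genes) and long noncoding RNA genes one of 0.14 (481 genes). Of the latter, 36 (7.48%) were higher and 18 (3.74%) lower at an unadjusted p under 0.05, against 6.29% and 6.03% of all genes. Of 1493 genes named only by a LOC number, 121 (8.1%) were higher and 72 (4.82%) lower, with a median of 0.07. Their share of the counts was 10.7% ± 0.605 (SD, n = 4) against 9.9% ± 0.625 (SD, n = 5) (exact permutation p = 0.111, adjusted 0.194). Of 241 zinc finger genes, 11 (4.56%) were higher and 7 (2.9%) lower, with a median of 0.11. By the distance a gene spans in the RefSeq annotation of another dog assembly, UU_Cfam_GSD_1.0, matched by symbol for 92.1% of the tested genes, the medians of 4 equal groups from the shortest to the longest genes were −0.04, 0.01, 0.02 and −0.01. Gene span is not transcript length, which was not available here.

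Genes were also divided by their level. In 4 equal groups from the least to the most abundant genes the median log2FC was 0.13, 0.05, −0.03 and −0.08. The share of genes lower at an unadjusted p under 0.05 was 2.01%, 4.43%, 6.38% and 11.3%, and in the most abundant group it was 10% without the ribosomal protein genes. The share higher was 6.76%, 7.01%, 5.82% and 5.57%. A test has less power for a gene with fewer counts. With age as a covariate, 65 of 3180 genes of the most abundant group were higher and 55 lower, against 295 and 196 of 12721 over all genes.

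Small RNA genes in the table are loci of microRNA precursors and similar genes, and mature microRNAs have no poly(A) tail. Which transcripts gave the counts on these loci was not tested. Their median log2FC was 0.19 over 47 genes, but −0.03 within series B. At an unadjusted p under 0.05, 5 (10.6%) were higher and 0 lower, against 6.29% and 6.03% of all genes. MIR590 had 16.5, 37.9, 17.6 and 13.7 CPM against 5.1, 7.03, 9.88, 9.32 and 12.1 CPM (log2FC 1.30 ± 0.39, SE). MIR21, within a locus whose microRNA is abundant in many tumors, had 32.3, 25.3, 29.9 and 21.7 CPM against 7.96, 13.4, 24.2, 10.7 and 14.7 CPM (log2FC 0.94 ± 0.34, SE), and overlapped through tumor 3. MIR8858 was by far the most abundant, with 25900, 33500, 13100 and 26000 CPM against 9290, 17900, 22500, 14200 and 11600 CPM (log2FC 0.71 ± 0.35, SE).

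Genes of antigen presentation were higher after long storage, in contrast to the translation genes. MHC class I molecules show peptides from inside the cell on nearly all cells, and class II molecules show peptides taken up from outside, mainly on macrophages, dendritic cells and B cells. In the dog these genes carry the prefix DLA. All 17 tested genes of the list had a log2FC above 0, with a median of 1.45 against 0.00 over all genes. At an unadjusted p under 0.05, 15 of 17 (88.2%) were higher and 0 were lower, against 6.29% and 6.03% of all genes. In 8 of 17 the groups did not overlap, against 2.32% of all genes. Their summed level was 7483, 11640, 5550 and 10530 CPM in long-stored tumors 6, 7, 8 and 9, and 4161, 3765, 2352, 2712 and 3085 CPM in short-stored tumors 1, 2, 3, 10 and 11. The sums did not overlap.

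CD74, the invariant chain that escorts class II molecules, had the smallest p of all genes. Its level was 883, 788, 797 and 713 CPM in the long-stored tumors and 189, 148, 104, 202 and 183 CPM in the short-stored tumors. The spread within each group was small beside a 4.81-fold difference (795 ± 69.8 against 165 ± 39.6 CPM, SD, log2FC 2.27 ± 0.24, SE). DESeq2 called it with a Benjamini-Yekutieli adjusted p of 3.47e-14. The class II gene DLA-DQB1 had 59.3, 73.6, 29.5 and 65.7 CPM against 17.8, 25, 10.5, 20.4 and 12.1 CPM (log2FC 1.73 ± 0.34, SE).

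Among the class I genes, DLA88 had 1880, 2820, 1100 and 3220 CPM against 835, 830, 550, 607 and 827 CPM (log2FC 1.63 ± 0.32, SE), with tumor 8 the lowest of the long-stored tumors. DLA-12 had 290, 391, 186 and 328 CPM against 169, 103, 65.9, 84.5 and 104 CPM (log2FC 1.51 ± 0.31, SE). DLA-64 had a log2FC of 1.58 ± 0.35 (SE) without overlap. The DLA genes are a polymorphic family whose reads can map to several members, so the values of single members are uncertain. B2M, the light chain that all class I molecules share, overlapped with 1150, 2420, 627 and 1480 CPM against 1050, 882, 382, 432 and 476 CPM (log2FC 1.14 ± 0.43, SE). CIITA and NLRC5, named after their values were seen, switch on the class II and class I genes. They were at low levels and overlapped (log2FC 1.87 ± 0.49 and 2.31 ± 0.53, SE).

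**Figure D4:**
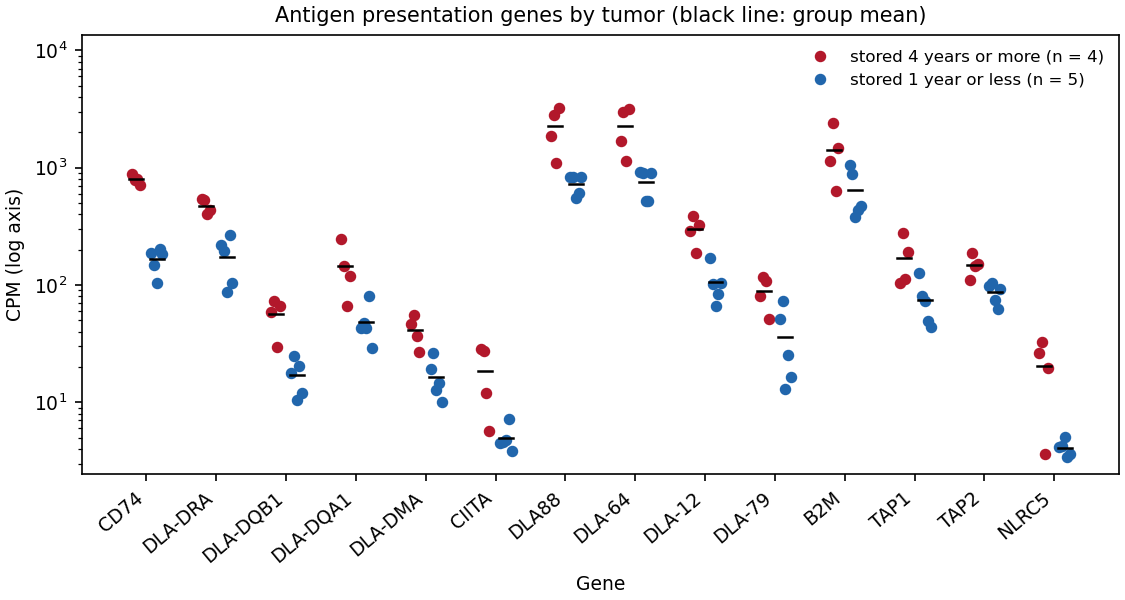
CPM (log axis) of 14 antigen presentation genes, with 4 long-stored tumors (red) and 5 short-stored tumors (blue) per gene and a black line at each group mean. CD74 shows the widest gap relative to its spread, at 713 CPM or more against 202 CPM or less, while the groups overlap for DLA-DQA1, DLA-79, B2M, TAP1, CIITA and NLRC5.

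The antigen presentation list kept its sign in the other fits. Its median was between 1.28 and 1.56 when 1 tumor was left out, 1.65 within series B (13 of 17 higher at an unadjusted p under 0.05) and 1.48 with age as a covariate (11 of 17 higher). Over all genes, 435 of 12661 were higher within series B and 295 of 12721 with age as a covariate. Of the primary tumors in neither group, tumor 5 had a summed level of 8715 CPM and tumor 4 one of 7673 CPM, both within the long-stored range. The metastases of the dogs of tumors 1, 2 and 3 had 4642, 5044 and 3612 CPM, each above the primary tumor of the same dog. The metastasis of the dog of tumor 4 went the other way, with 4839 CPM against 7673 CPM in the primary tumor.

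**Figure D5:**
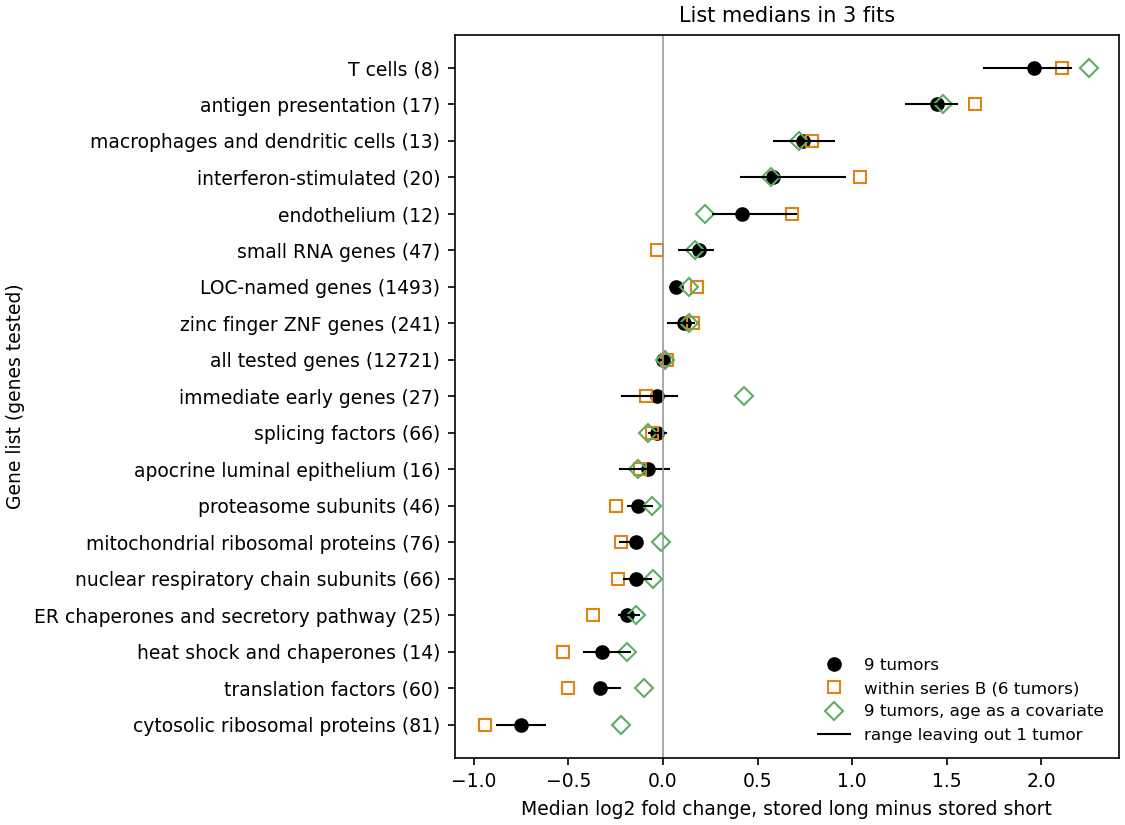
Median log2FC (long minus short) of 18 gene lists and of all tested genes in the fit to 9 tumors (black, with the range over fits that left out 1 tumor), within series B (orange) and with age as a covariate (green), with the number of genes tested in the first fit. The ribosomal protein median moves from −0.75 to −0.22 with age as a covariate, and the antigen presentation median from 1.45 to 1.48.

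Markers of T cells and of macrophages and dendritic cells moved with the antigen presentation genes, and their part in that result was not tested. In bulk tissue, fewer cells of a type and less RNA per cell cannot be told apart. Of 14 T cell markers in the table, 8 were abundant enough to be tested, with a median log2FC of 1.96, and 5 of 8 were higher at an unadjusted p under 0.05, against 6.29% of all genes. The other markers had too few counts for the test, so these 8 do not stand for the list. Markers could pass the filter on low counts through the long-stored group alone, so the median and share of these 8 are a description. The summed level over the 14 markers was 158, 196, 29.5 and 91.3 CPM in long-stored tumors 6, 7, 8 and 9. It ranged from 20.6 to 40.8 CPM in the short-stored tumors. Long-stored tumor 8 lay within the short-stored range of T cell markers and above that of antigen presentation genes. Its macrophage and dendritic cell markers summed to 592 CPM, above the short-stored range of 278 to 561 CPM. Tumor 5, in neither group, had 27.7 CPM of T cell markers beside its 8715 CPM of antigen presentation genes. Its macrophage and dendritic cell markers summed to 397 CPM, within the short-stored range.

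CD2, an adhesion receptor of T cells, had 27.4, 33.3, 10.8 and 17.6 CPM against 9.24, 2.81, 5.42, 6.9 and 4.39 CPM (log2FC 1.95 ± 0.44, SE). CD3E, a chain of the T cell receptor complex, had 24.4, 31.4, 5.4 and 6.06 CPM against 4.46, 3.87, 4.78, 3.45 and 1.03 CPM (log2FC 2.25 ± 0.64, SE). Both stood apart by a narrow gap, and the lowest of these values rest on few counts, since 3 counts were 0.774 to 1.15 CPM. A pair of receptor genes of lymphocytes was among the 12 genes named for the smallest p, and both passed the filter on low counts through the long-stored group, so their values are a description. IL2RG, the shared chain of several interleukin receptors, had 20.7, 28, 6.48 and 10.5 CPM against 0.956, 1.76, 1.59, 1.73 and 1.55 CPM (log2FC 3.40 ± 0.52, SE). GPR171 had 27.4, 22.6, 6.12 and 24.9 CPM against 4.46, 0.351, 2.55, 1.04 and 2.06 CPM (log2FC 3.24 ± 0.64, SE).

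Markers of macrophages and dendritic cells had a median log2FC of 0.74 over 13 genes. At an unadjusted p under 0.05, 5 (38.5%) were higher and 0 lower, against 6.29% and 6.03% of all genes. Their summed level was 592 to 963 CPM after long storage and 278 to 561 CPM after short storage, without overlap. C1QB, a chain of complement component C1q, had 90.5, 105, 82.1 and 116 CPM against 28.7, 60.1, 31.5, 45.5 and 28.6 CPM (log2FC 1.34 ± 0.27, SE). C1QA, another chain of the same protein, overlapped (log2FC 0.52 ± 0.28, SE). ITGAX, an integrin of dendritic cells, had 31.5, 26.8, 63.4 and 31.3 CPM against 3.5, 21.1, 14.3, 13.1 and 7.48 CPM (log2FC 1.69 ± 0.47, SE). Of the B and plasma cell markers, 5 of 12 were tested, with a median of 0.73, and 0 of 5 reached an unadjusted p under 0.05 in either direction. That median was 0.33 without tumor 6 and 1.32 without tumor 2. Of 13 neutrophil and mast cell markers 3 were tested, with a median of −0.71 and 2 of 3 below 0. Endothelial markers had a median of 0.42 over 12 genes, with 3 (25%) higher and 0 lower. Within series B, 1 was higher and 1 lower, against 435 and 508 of 12661 over all genes. Their summed level overlapped, at 230 to 602 CPM after long storage and 243 to 844 CPM after short storage.

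Interferon-stimulated genes were less uniform. Their median was 0.58 over 20 genes, with 6 (30%) higher and 0 lower at an unadjusted p under 0.05, against 6.29% and 6.03% of all genes, and 0 without overlap. The median was 0.97 without tumor 2 and 1.04 within series B. The chemokine gene CXCL10 had 36.8, 62.5, 3.24 and 31 CPM against 15.6, 6.33, 4.14, 4.14 and 10.1 CPM (log2FC 2.04 ± 0.67, SE). Tumor 8 lay below the short-stored range, and the other long-stored tumors lay above it. DHX58, a regulator of RNA sensing, had 28.2, 26.8, 14 and 32.6 CPM against 8.92, 17.6, 7.33, 8.28 and 8.77 CPM (log2FC 1.32 ± 0.36, SE), and the groups overlapped through tumors 8 and 2. IFI44, one of the most abundant members, had a log2FC of −0.70 ± 0.49 (SE).

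The remaining genes named for the smallest p among those higher were of mixed function, and none of them passed the correction with edgeR. MAPK11, a p38 stress kinase, had 21 to 118 counts in the long-stored tumors and 0 to 4 in the short-stored ones, which is 31.5, 10.3, 7.56 and 37.7 CPM against 0.319, 0.351, 0.637, 1.38 and 0 CPM. It passed the filter on low counts only through the long-stored group, and its place among the smallest p depends on that. VNN1, a pantetheinase, had 134, 169, 33.5 and 88.1 CPM against 6.05, 1.05, 15.3, 1.73 and 9.29 CPM (log2FC 3.97 ± 0.70, SE). Too few short-stored tumors reached the level of the filter, so VNN1 also passed it only through the long-stored group. LENG8 had 56, 52.9, 49.7 and 60 CPM against 18.2, 25.3, 26.4, 26.2 and 18.6 CPM (log2FC 1.25 ± 0.21, SE), with little spread in either group. IL18BP, which binds and blocks interleukin 18, had 21.4, 17.6, 17.6 and 21.4 CPM against 7.01, 4.57, 5.1, 8.97 and 3.87 CPM (log2FC 1.72 ± 0.34, SE). TMEM268, RASSF6 and FATE1 had log2FC of 1.61 ± 0.29, 1.81 ± 0.35 and 6.18 ± 1.11 (SE). FATE1 rested on tumor 6 more than on the others, with 326 CPM there and 47.1, 19.8 and 32.9 CPM in the other long-stored tumors. With 0 to 13 counts in the short-stored tumors, FATE1 too passed the filter on low counts only through the long-stored group. Its place among the smallest p depends on that as well.

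Among the genes lower after long storage, MGST1, a microsomal glutathione transferase, had 6.38, 10.7, 9.36 and 14 CPM against 53.8, 86.1, 72.6, 30 and 153 CPM (log2FC −2.96 ± 0.47, SE). TTC25, which docks dynein arms in cilia, had 3.76, 10.7, 1.8 and 2.87 CPM against 39.2, 52.7, 35.7, 29.3 and 42.3 CPM (log2FC −3.06 ± 0.49, SE). In both, every long-stored tumor stood well below every short-stored one. TTC25 passed the filter on low counts only through the short-stored group, where it was higher, so its values are a description. GULP1, an adaptor for engulfment of dying cells, had 5.63, 12.3, 6.48 and 10.5 CPM against 111, 48.8, 30.6, 27.6 and 53.1 CPM (log2FC −2.63 ± 0.47, SE). PALLD, an actin scaffold, had 51.8, 71.7, 59.1 and 48.8 CPM against 225, 176, 272, 107 and 132 CPM (log2FC −1.66 ± 0.30, SE). Its 3 highest tumors were those of series A, and within series B its log2FC was −1.07. The proton pump subunit ATP6V1C2 had the largest log2FC of these 12 genes, with 39.8, 33.3, 93.6 and 42.8 CPM against 2300, 544, 921, 122 and 490 CPM (log2FC −4.06 ± 0.78, SE), and its log2FC within series B was −2.56. STEAP2, a metalloreductase, likewise went from −2.44 ± 0.51 (SE) to −1.35 within series B. TCEAL1, DENND5A and CCDC115 had log2FC of −1.49 ± 0.30, −1.57 ± 0.32 and −1.47 ± 0.30 (SE).

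Neuroendocrine genes had a median log2FC of 4.59 over 4 tested genes of 8 in the table, and single tumors differed widely. At an unadjusted p under 0.05, 3 (75%) were higher and 1 (25%) lower, against 6.29% and 6.03% of all genes. PCSK1, a prohormone convertase, had 1790, 29.9, 6.12 and 702 CPM against 0, 3.87, 0, 2.42 and 9.54 CPM, and tumor 8 lay within the short-stored range. CHGA, a granule protein, had 43.9, 7.28, 16.2 and 40.2 CPM against 0.637, 5.62, 0, 0 and 5.42 CPM (log2FC 3.49 ± 1.00, SE). ENO2, a neuronal enolase, went the other way, with 9.01, 1.15, 6.12 and 0.957 CPM against 7.01, 51, 5.42, 145 and 140 CPM (log2FC −4.01 ± 1.12, SE). DESeq2 called PCSK1 and ENO2, with adjusted p of 0.0453 and 0.0253. PCSK1 and CHGA passed the filter on low counts only through the long-stored group, and ENO2 only through the short-stored group. The values of these 3 genes and the list's median are therefore a description.

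Of 16 tested luminal epithelial genes, 2 (12.5%) were higher and 1 (6.25%) was lower at an unadjusted p under 0.05. The shares over all genes were 6.29% and 6.03%, and the list's median was near 0. CDH1, the cell adhesion protein E-cadherin, had 820, 1300, 1400 and 1480 CPM against 729, 739, 900, 670 and 614 CPM (log2FC 0.77 ± 0.23, SE), and overlapped through long-stored tumor 6. The transcription factor gene ELF3 had 28.5, 38.7, 40.3 and 37.7 CPM against 20.1, 7.03, 18.8, 19.7 and 22.7 CPM (log2FC 1.04 ± 0.32, SE) without overlap. AZGP1, a secreted glycoprotein, was the lower one (log2FC −1.36 ± 0.54, SE), and its groups overlapped. Proliferation genes had a median of 0.25 over 23 genes, with 0 higher and 0 lower at an unadjusted p under 0.05, and the median turned to −0.23 with age as a covariate and ranged from 0.11 to 0.58 without 1 tumor. Collagen and fibroblast genes had a median of −0.03 over 18 genes.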

How the data were processed

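QuantSeq 3′ libraries of 9 primary AGASAC were compared by FFPE block storage. Per the labels, the submitters' processing notes name cutadapt, STAR, featureCounts, DESeq2 and the build CanFam3.1. The authors deposited whole counts per gene without normalization, with annotation extended by up to 2 kb at the 3′ end and multi-mapped reads split over their locations. The deposited table also holds a signal (counts divided by a size factor) and the log2 fold change, p-value and adjusted p-value of another comparison, which were not used. 0 columns of per-sample values were left unmapped.

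The count test was edgeR 4.0.16 in R 4.3.3 (filterByExpr, minimum count 10, minimum total count 15; TMM; quasi-likelihood test, no covariate). A call required a p adjusted by Benjamini-Yekutieli not above 0.05 together with a log2FC of 1 or more in size. CPM were scaled by TMM over the 9 tumors. Single values were compared by exact two-sided permutation tests over 126 splits (scipy 1.17.1), adjusted over 7 measures. Alternatives were DESeq2 1.42.0, other scaling, filters, samples and covariates, and leaving out each tumor. The smallest chi-square per degree of freedom of a pair within a group was 29.8, so none of these pairs was a duplicate, and pairs across groups were not checked. The test was checked on simulated data. Counts per tumor ranged from 2581453 to 4218340, and 3 counts, the limit that a count of 0 allows, were 0.774 to 1.15 CPM; this covers counting error only.

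The tumors, the 34 gene lists and the tests were chosen with earlier results of these data known. Named genes were the 12 in each direction with a symbol, a log2FC past 1 and the smallest unadjusted p, since too few were called, and of each list 2 to 4 members with the highest CPM or the smallest p. Genes are named as in the table. No coordinates or sequences are given.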

Additional observations from a re-analysis of the deposited data

Results flagged for a closer look

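Of 150 groups of tumors checked for a value far from the others by Dixon's criterion, 11 were marked, where chance marks about 1 in 20. Long-stored tumor 8 was the highest of its group for ATP6V1C2 (93.6 CPM), CCDC115 (113 CPM), ITGAX (63.4 CPM) and GAPDH (1460 CPM). Long-stored tumor 6 stood out for FATE1 (326 CPM) and long-stored tumor 7 for MIR590 (37.9 CPM). Short-stored tumor 2 was the highest of its group for DHX58 (17.6 CPM) and the lowest for ELF3 (7.03 CPM). Short-stored tumor 1 was the lowest for IL2RG (0.956 CPM), tumor 10 the highest for CIITA (7.25 CPM) and tumor 11 the highest for GAPDH (1620 CPM). The short-stored values of IL2RG rested on only 3 to 6 counts each, so that mark is weak. Tumor 8 also lay apart from the other long-stored tumors on principal component 1.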

How the results depend on the processing

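The number of genes called was 0 in the reported fit, 62 with DESeq2, 1 with Benjamini-Hochberg adjustment, 1 with scaling by library size alone and 2 with all 25 samples in the fit. It was 0 with the other scaling, filters, covariates and series settings, and 0 without each tumor in turn. The number at an unadjusted p under 0.05 was 1567, against 1030 within series B and 491 with age as a covariate, and 1140 to 1834 without 1 tumor. The median log2FC of the ribosomal protein genes was −0.22 with age as a covariate. That of the translation factors was −0.50 within series B, −0.48 with series as a term and −0.10 with age. The cause of these shifts was not tested. The difference in the share of the most abundant genes reversed from −1.94 to 1.2 percentage points when the 10 rather than the 100 most abundant were taken.

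Without 1 tumor, the difference in total counts was −722000 to −402000, in genes detected −761 to −104, in the ribosomal protein share −5.68 to −3.67 percentage points, in DV200 −1.38 to 2.17 percentage points and in age 1.37 to 2.2 years. The differences in total counts, ribosomal protein share and age had an unadjusted exact p under 0.05 in 2, 2 and 1 of these 9 comparisons, and fewer tumors leave fewer splits. Within series B they were −901000 counts, −5.8 percentage points and 1.88 years, where no exact p can reach 0.05. No paired analysis was possible because the tumor numbers name different dogs and the long- and short-stored groups share none. Differences between levels under 3 counts, 0.774 to 1.15 CPM by tumor, were not detectable at this depth.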
